A study of Mus musculus with 12 samples.

Results

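Matrix metalloproteinases and their tissue inhibitors were examined in periocular skin of filaggrin-deficient mice with and without MyD88. The genes were chosen by name: Mmp2, Mmp3, Mmp8, Mmp9, Mmp10, Mmp12, Mmp13, Mmp14, Timp1 and Timp3. All 10 were found among the 21247 genes of the count table, and all 10 were abundant enough to be tested. RNA-seq was available for 4 ft/ft mice, homozygous for a spontaneous point mutation that inactivates the filaggrin gene, and for 4 ft/ftMyD88-/- mice, bred by crossing ft/ft to mice deficient in MyD88. Both groups therefore lack functional filaggrin, are on the BALB/c background and were given as 6 weeks old. MyD88 is the adaptor through which IL-1 family receptors and most Toll-like receptors signal. Its loss in the second group is not limited to a cell type. The comparison asks how these genes differ between filaggrin-deficient skin with and without MyD88. The study reports spontaneous periocular skin inflammation in the second group, fully penetrant by the age used here, and none visible in the first. Loss of MyD88 and inflammation therefore go together in this comparison, and their separate parts were not tested. Another 4 wild-type (WT) samples were not analysed here, and neither is there a MyD88-/- group with intact filaggrin.

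Matrix metalloproteinases (MMPs) are zinc-dependent endopeptidases that cleave collagens, elastin, laminins and other proteins of the extracellular matrix, and also cytokines and cell surface proteins. Most are secreted as inactive proenzymes and become active only when other proteases remove the propeptide. The tissue inhibitors of metalloproteinases (TIMPs) block the active site. In skin, fibroblasts, keratinocytes, neutrophils and macrophages each make a part of the family, and transcription of several members responds to IL-1, TNF and AP-1 factors. The messenger RNA level says nothing of how much enzyme is active.

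Libraries held 18941705 to 29255129 counts for ft/ft and 15802957 to 27037997 counts for ft/ftMyD88-/-, and the groups overlapped (two-sided exact permutation test, p = 0.457, n = 4 per group). Levels are in CPM, counts scaled to a common library size with edgeR's TMM factors, and a count of 0 allowed up to 0.102 to 0.183 CPM, depending on the library. Both groups were given as female, but Xist averaged 0.0107 ± 0.0214 CPM (SD, n = 4) where the label was ft/ft and 49.4 ± 13.3 CPM where it was ft/ftMyD88-/-, while the Y-linked Ddx3y averaged 65.0 ± 8.97 and 0.147 ± 0.225 CPM. Genotype and sex therefore cannot be told apart in any comparison here. Myd88 itself had no lower count where the label was ft/ftMyD88-/- (41.2 ± 7.29 against 30.7 ± 4.74 CPM; log2 fold change 0.42 ± 0.14 (SE), edgeR adjusted p = 0.0484), and the sources used here do not say which exons the knockout removed, so this count does not check the labels. Group names are those of the labels throughout.

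Of the 10 genes, the collagenase Mmp13 and the stromelysin Mmp10 were higher in ft/ftMyD88-/- skin, and the inhibitor Timp3 was lower. The other 7 did not pass the test. Calls are by the quasi-likelihood test of edgeR, at an adjusted p under 0.05 after Benjamini-Hochberg correction over all 20454 genes tested. By that rule 23.3% of all tested genes were called, 10.9% as higher and 12.3% as lower, so 3 calls among 10 genes is a share near that of the whole table. The median log2 fold change of the 10 genes was -0.01, also with Mmp10 at its lower bound, and it was 0.01 over all tested genes. Fold changes ran from log2 -0.56 for Mmp12 to log2 3.13 for Mmp10.

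**Figure D1:**
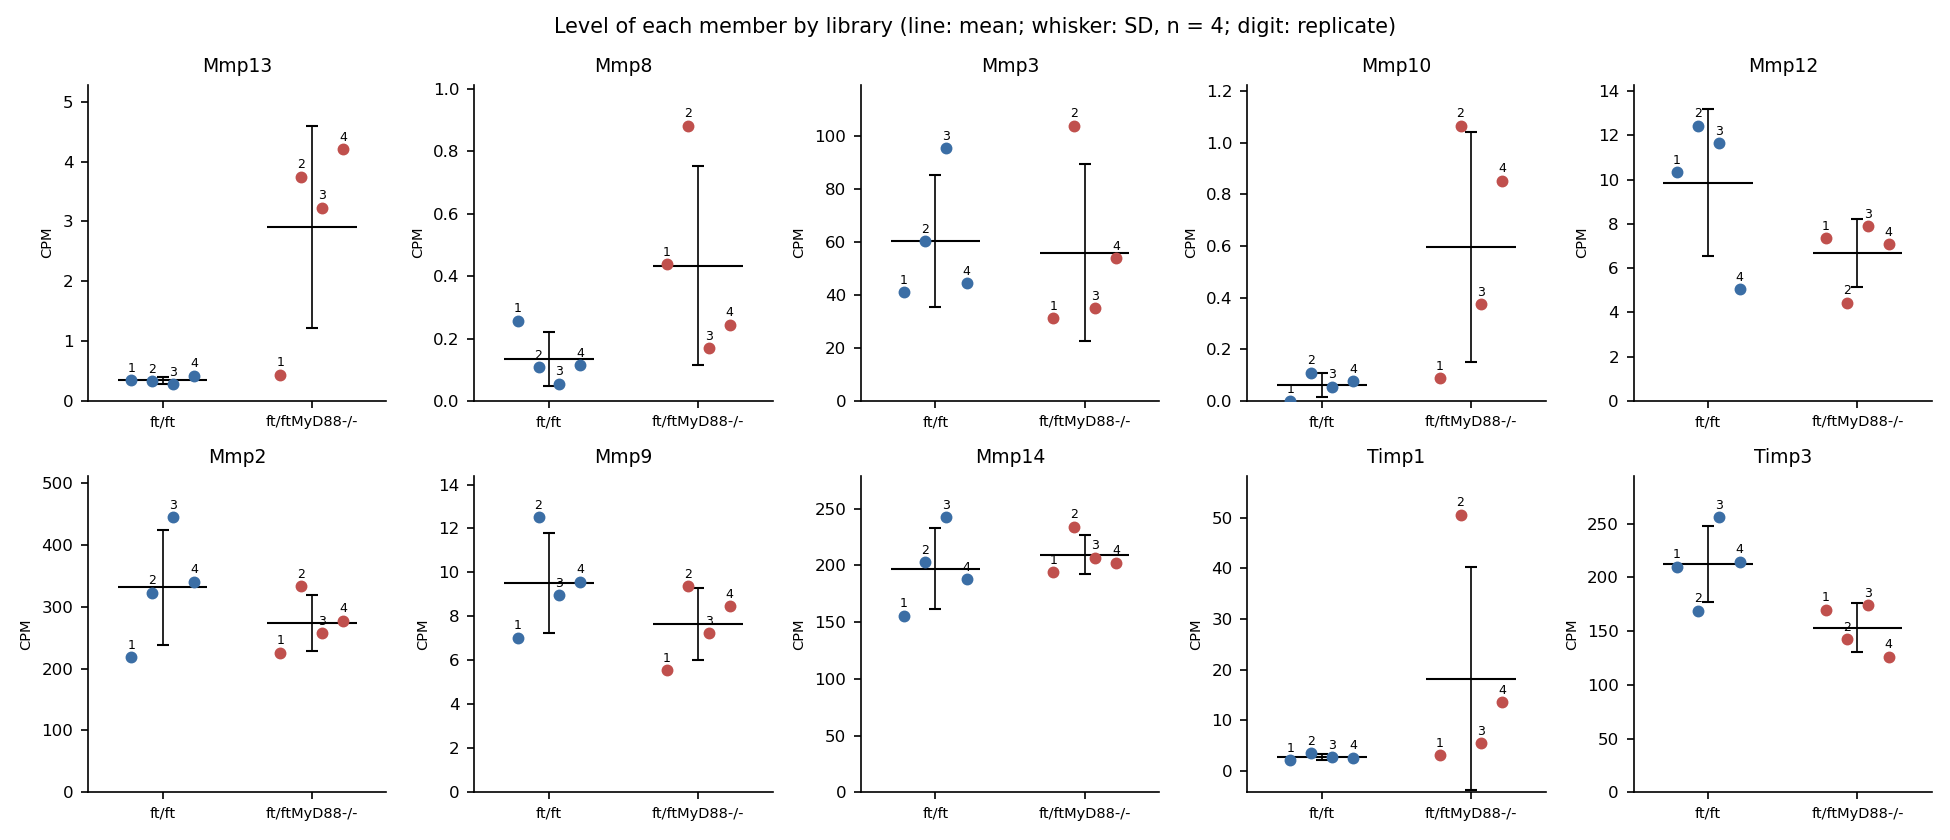
CPM of the 10 genes (vertical axis, linear) in each of the 4 ft/ft and 4 ft/ftMyD88-/- libraries; digits are replicate numbers, the horizontal line is the group mean and the whisker the SD. Mmp13 is at 3.23 to 4.21 CPM in ft/ftMyD88-/- replicates 2, 3 and 4 but at 0.438 CPM in replicate 1, next to the ft/ft libraries at 0.279 to 0.422 CPM.

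Of the 10 genes, 5 lie in the MMP gene cluster of mouse chromosome 9, which spans 427.1 kb and holds 10 MMP genes (GRCm38, GENCODE annotation). In order they are Mmp13 at chr9:7272514-7283331, Mmp12 at chr9:7344381-7369499, Mmp3 at chr9:7445822-7455975, Mmp10 at chr9:7502352-7510240 and Mmp8 at chr9:7558456-7568485, all on the plus strand. Mmp1b lies between Mmp12 and Mmp3, and Mmp1a between Mmp3 and Mmp10. Of the 6 genes of the cluster that were tested, Mmp13 and Mmp10 were called higher and none was called lower, against 10.9% and 12.3% of all tested genes. Mmp12 and Mmp3, which lie between them, and Mmp8 and Mmp27 were not called, and differences between these genes were not tested. The remaining genes are scattered, with Mmp2 at chr8:92827291-92853420, Mmp9 at chr2:164940780-164955850, Mmp14 at chr14:54431612-54445364, Timp1 at chrX:20870166-20874735 and Timp3 at chr10:86300372-86349506.

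Promoter sequence was available from RefSeq (GRCm38.p6, 250 bases before to 50 bases after the start) for 8 of the 10 genes, and not for Mmp2 and Mmp9. The AP-1 motif TGAGTCA, searched on both strands where its reverse complement reads TGACTCA, was found in 4 of the 8, against 5.2% of all 32851 promoter windows. These 4 were Mmp13, Mmp10, Mmp3 and Mmp12, of which Mmp12 held it in 1 of its 2 windows. That window (chr9:7347124-7347423) lies inside the annotated Mmp12 gene. The Mmp12 window at the gene start (chr9:7344147-7344446) held neither this motif nor TATAAA. A gene counted if any of its windows held a motif, whereas the percentages are over windows, so the measures are not fully alike. The TATAAA motif, also searched on both strands, was found in the same 4 genes and in Mmp8, against 13.6% of all windows. Neither motif was in the windows of Mmp14, Timp1 or Timp3. The 120 bases that end just before the start are shown for the 4 genes with both motifs, since they include the pair that was called higher and a pair that was not. Letters run 5′ to 3′ on the plus strand of GRCm38.p6, and capitals mark TGAGTCA or TGACTCA and a TATAAA on the gene's strand.
Mmp13, chr9:7272394-7272513: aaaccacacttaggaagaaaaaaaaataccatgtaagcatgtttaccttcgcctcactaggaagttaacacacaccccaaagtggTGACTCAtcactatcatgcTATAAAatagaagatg
Mmp10, chr9:7502222-7502341: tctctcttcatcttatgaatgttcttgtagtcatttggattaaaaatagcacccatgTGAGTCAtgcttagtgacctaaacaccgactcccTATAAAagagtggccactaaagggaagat
Mmp3, chr9:7445702-7445821: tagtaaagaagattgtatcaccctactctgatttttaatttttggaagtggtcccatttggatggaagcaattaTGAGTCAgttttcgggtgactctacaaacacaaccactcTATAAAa
Mmp12, chr9:7347254-7347373: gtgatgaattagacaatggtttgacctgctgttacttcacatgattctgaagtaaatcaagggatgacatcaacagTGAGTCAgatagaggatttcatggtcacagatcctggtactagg
The AP-1 motif begins at position -35 in Mmp13, -63 in Mmp10, -46 in Mmp3 and -44 in Mmp12, where -1 is the last base before the start. In Mmp12 the TATAAA begins at position 5, past the stretch shown. A match of letters describes the sequence only, and the motif was present alike in genes that were called higher and in genes that were not.

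The collagenases cut fibrillar collagen, and Mmp13 is the main interstitial collagenase of rodents. Mmp13 was at 0.343, 0.327, 0.279 and 0.422 CPM in the 4 ft/ft libraries and at 0.438, 3.75, 3.23 and 4.21 CPM in ft/ftMyD88-/- replicates 1 to 4. Every ft/ftMyD88-/- library was above every ft/ft library, which made Mmp13 the only one of the 10 genes without overlap, but replicate 1 exceeded the highest ft/ft library by little. Over all tested genes, every ft/ftMyD88-/- library was above every ft/ft library in 12.5% and below in 14.2%. The means were 0.343 ± 0.0593 and 2.91 ± 1.69 CPM (SD, n = 4), a log2 fold change of 3.04 ± 0.60 (SE; 95% interval 1.70 to 4.38; edgeR adjusted p = 0.00603). The counts behind it were low, 5 to 11 in ft/ft and 10 to 102 in ft/ftMyD88-/-. The call held when any single library was left out (adjusted p from 1.06e-05 to 0.0241) but limma voom did not make it (adjusted p = 0.0628).

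Mmp8, the collagenase stored in neutrophil granules, was barely detected. Its counts were 6, 3, 1 and 3 in ft/ft and 10, 24, 5 and 4 in ft/ftMyD88-/-, or 0.0558 to 0.257 against 0.170 to 0.882 CPM. Replicates 3 and 4 of ft/ftMyD88-/- lay below ft/ft replicate 1, so the groups overlapped. The log2 fold change was 1.66 ± 0.62 (SE; 95% interval 0.31 to 3.00), and it did not pass the test (edgeR adjusted p = 0.0718). With a library size scaling alone the adjusted p was 0.0425, and without ft/ftMyD88-/- replicate 3 it was 0.0324.

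The stromelysins share a wide range of substrates and can activate other proMMPs, and Mmp10 is known from keratinocytes at wound edges. Mmp10 was near absent from ft/ft skin, with counts of 0, 3, 1 and 2, and reached 2, 29, 11 and 14 counts in ft/ftMyD88-/-. In CPM these are 0, 0.109, 0.0558 and 0.0767 against 0.0876, 1.07, 0.374 and 0.854. As for Mmp13, ft/ftMyD88-/- replicate 1 stood with the ft/ft libraries and the others were higher. Against the level of 3 counts in each ft/ft library, Mmp10 was on average at least 4.58-fold higher in ft/ftMyD88-/-, and at least 3.37-fold higher without replicate 2. The edgeR adjusted p was 0.0150, and the fitted log2 fold change of 3.13 ± 0.80 (SE) depends on the small counts of ft/ft. With limma voom it was not called (adjusted p = 0.0746), and a stricter expression filter left the gene untested.

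Mmp3, the other stromelysin, was far more abundant and went no single way. It was at 41.1, 60.4, 95.5 and 44.5 CPM in ft/ft and at 31.2, 104, 34.9 and 53.9 CPM in ft/ftMyD88-/-. The highest library of either group held more than 2-fold the level of its lowest, and the ranges overlapped. The log2 fold change was -0.11 ± 0.48 (SE; 95% interval -1.25 to 1.04; edgeR adjusted p = 0.900), so a change of 2-fold in either direction lay inside the interval. With library size scaling alone its sign turned (log2 fold change 0.07).

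Mmp12 is the elastase of macrophages. It was at 10.3, 12.4, 11.7 and 5.06 CPM in ft/ft and at 7.36, 4.45, 7.89 and 7.07 CPM in ft/ftMyD88-/-. Of the 4 ft/ft libraries, 3 were above every ft/ftMyD88-/- library, and ft/ft replicate 4 was below all but one of them. The log2 fold change was -0.56 ± 0.27 (SE; edgeR adjusted p = 0.164), and without ft/ft replicate 4 it was -0.78 with an adjusted p of 0.0193. The summed level of 12 macrophage and monocyte markers was 643 to 842 CPM in ft/ft and 872 to 1190 CPM in ft/ftMyD88-/-, and Lyz2 carried most of the difference (260 ± 13.5 against 514 ± 117 CPM; SD, n = 4). Without Lyz2, a sum chosen after the values were seen, the other 11 summed to 507 ± 76.7 and 580 ± 108 CPM and the groups overlapped, with 6 positive and 5 negative fold changes. Mmp12 shares 157 exon bases with Mmp1b on the opposite strand, but Mmp1b had at most 3 counts in any library.

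The gelatinases degrade denatured collagen and basement membrane collagen. Mmp2, which dermal fibroblasts make constitutively, was at 218, 323, 444 and 340 CPM in ft/ft and at 226, 333, 257 and 278 CPM in ft/ftMyD88-/-. Its log2 fold change was -0.28 ± 0.19 (SE; 95% interval -0.71 to 0.16; edgeR adjusted p = 0.340). Mmp9, the gelatinase of neutrophils, macrophages and activated keratinocytes, was at 7.03, 12.5, 8.98 and 9.59 CPM in ft/ft and at 5.57, 9.37, 7.25 and 8.48 CPM in ft/ftMyD88-/-. Its log2 fold change was -0.32 ± 0.20 (SE; 95% interval -0.74 to 0.11; edgeR adjusted p = 0.267). The groups overlapped for both genes, and the upper bounds of both intervals lie well under a doubling.

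Mmp14, a membrane-anchored MMP that activates proMmp2 on the cell surface together with Timp2, had the narrowest interval of the 10 genes. It was at 156, 203, 242 and 188 CPM in ft/ft and at 194, 234, 207 and 202 CPM in ft/ftMyD88-/-. The log2 fold change was 0.09 ± 0.12 (SE; 95% interval -0.18 to 0.36; edgeR adjusted p = 0.660).

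Timp1, the inhibitor that tissues induce in inflammation and repair, had an SD larger than its mean in ft/ftMyD88-/-, where it averaged 18.2 CPM (n = 4). It was at 2.14, 3.53, 2.79 and 2.68 CPM in ft/ft and at 3.16, 50.6, 5.55 and 13.7 CPM in ft/ftMyD88-/-. Replicate 2 alone carried most of the difference, replicates 3 and 4 were above every ft/ft library, and replicate 1 was below ft/ft replicate 2. The log2 fold change was 2.71 ± 0.95 (SE; 95% interval 0.41 to 5.01) and did not pass the test (edgeR adjusted p = 0.0898), whereas DESeq2 called it (adjusted p = 0.00638). Without replicate 2 the log2 fold change was 1.40 (edgeR adjusted p = 0.0625). Timp1 is X-linked, and it lies within an intron of Syn1 on the opposite strand, which averaged 0.624 ± 0.162 and 0.520 ± 0.206 CPM.

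Timp3, which binds to the matrix and also inhibits several ADAM proteases, was the only one of the 10 genes called lower. It was at 210, 169, 256 and 214 CPM in ft/ft and at 170, 143, 174 and 126 CPM in ft/ftMyD88-/-. Of the ft/ft libraries, 3 were above every ft/ftMyD88-/- library, and ft/ft replicate 2 lay just below the upper pair of ft/ftMyD88-/-. The means were 212 ± 35.5 and 153 ± 22.8 CPM (SD, n = 4), a log2 fold change of -0.47 ± 0.14 (SE; 95% interval -0.76 to -0.18; edgeR adjusted p = 0.0255). The call was lost with library size scaling alone (log2 fold change -0.29, adjusted p = 0.142) and in 5 of the 8 fits that left out 1 library: ft/ft replicate 1, 3 or 4, or ft/ftMyD88-/- replicate 2 or 4 (adjusted p from 0.0516 to 0.0816). Timp3 shares 1733 exon bases with Syn3 on the opposite strand, which averaged 0.594 ± 0.344 and 0.512 ± 0.0899 CPM.

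**Figure D2:**
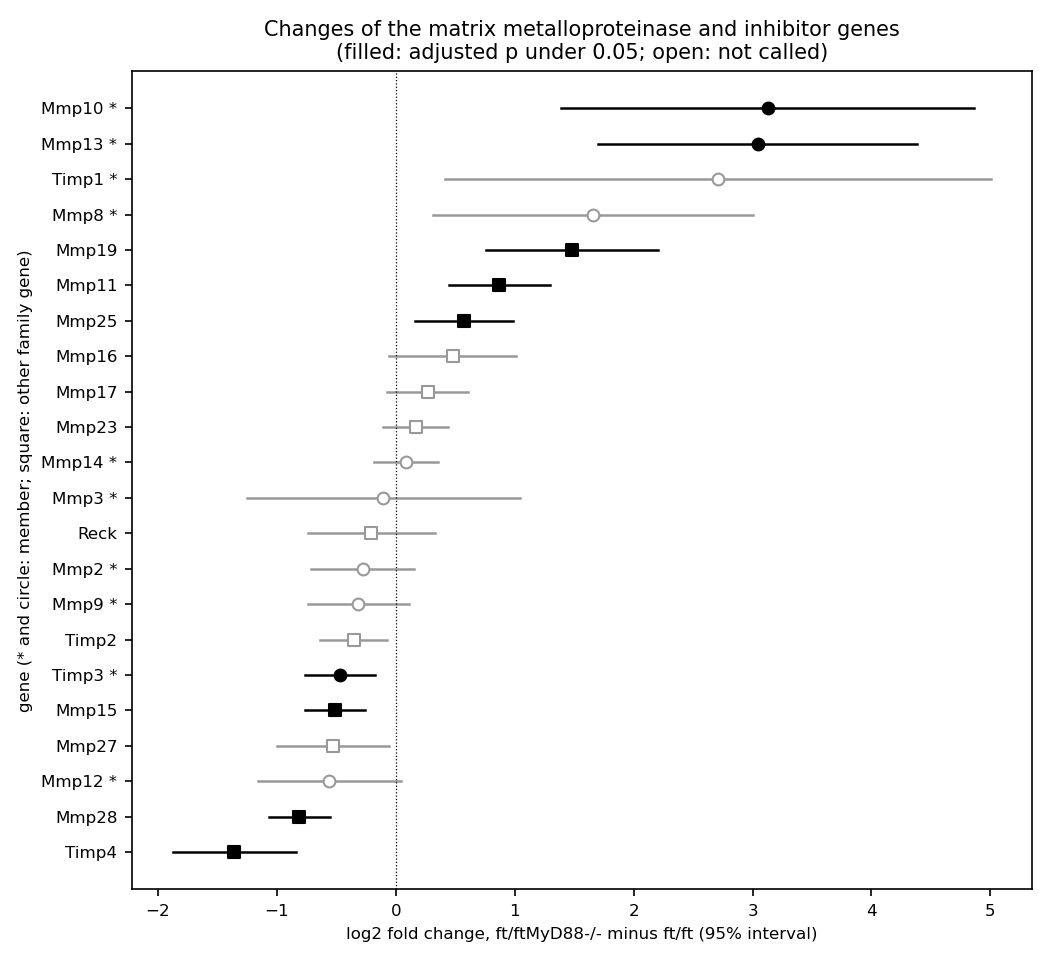
Log2 fold change, ft/ftMyD88-/- minus ft/ft (horizontal axis), with its 95% interval from edgeR for the 10 genes (circles) and for the other tested MMP and inhibitor genes with more than 3 counts in any library (squares); filled symbols passed an adjusted p of 0.05. Mmp10, Mmp13, Mmp19, Mmp11 and Mmp25 are filled on the right of 0, and Timp3, Mmp15, Mmp28 and Timp4 on the left.

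Per kilobase of exon, the mean levels of the 10 genes covered more than 3 orders of magnitude in ft/ft. In ft/ft the mean level was 98.3 ± 27.5 CPM per kb for Mmp2, 33.5 ± 13.8 for Mmp3, 33.1 ± 6.04 for Mmp14, 26.1 ± 4.35 for Timp3, 3.14 ± 0.642 for Timp1, 2.69 ± 0.641 for Mmp9, 1.36 ± 0.459 for Mmp12, 0.128 ± 0.0222 for Mmp13, 0.0554 ± 0.0355 for Mmp8 and 0.0351 ± 0.0266 for Mmp10 (SD, n = 4). In that order the library ranges overlapped between Mmp3 and Mmp14, Mmp14 and Timp3, Timp1 and Mmp9, Mmp13 and Mmp8, and Mmp8 and Mmp10, and the other neighbours stood apart. In ft/ftMyD88-/- Mmp2 was again highest, at 81.1 ± 13.4 CPM per kb. Timp1 was at rank 4 by its mean (20.5 ± 24.8 CPM per kb), next to Timp3 (18.8 ± 2.80), with ranges that overlapped. That rank rests on replicate 2, at 57.0 CPM per kb. Replicates 1, 3 and 4 were at 3.55, 6.25 and 15.4 CPM per kb, below the Timp3 mean. Mmp13 was at rank 7 (1.09 ± 0.633), next to Mmp12 (0.925 ± 0.212). Even at its ft/ftMyD88-/- mean, Mmp13 therefore stayed far below the gelatinase Mmp2 and the stromelysin Mmp3 in transcript level. Exon lengths were those of all annotated transcripts together, so genes with long minor transcripts read low.

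**Figure D3:**
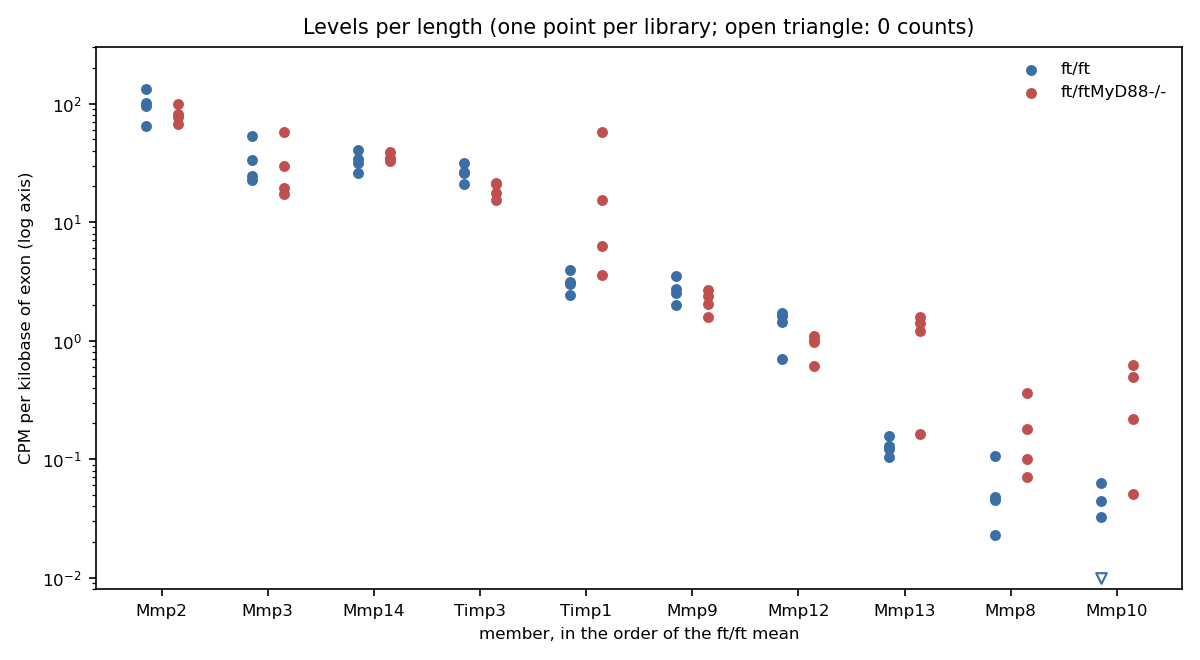
CPM per kilobase of exon (log axis) of the 10 genes in each library, in the order of the ft/ft mean; the open triangle marks the ft/ft library with 0 counts of Mmp10. Mmp2 lies at 64.7 to 132 CPM per kb in ft/ft and Mmp13 at 0.104 to 0.158.

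Ratios of counts within a library do not depend on the scaling between libraries. In all, 10 ratios were examined, of which 3 did not overlap between the groups and 7 did. Among single genes, every ft/ftMyD88-/- library was above every ft/ft library in 12.5% of those tested and below in 14.2%. A share of 3 in 10 is thus near that of single genes without overlap, and other pairs of genes were not examined. The ratios given were chosen after their values were seen and carry no test. The ratio of Mmp9 to Timp1 was 3.28, 3.55, 3.22 and 3.57 in the ft/ft libraries and 1.76, 0.185, 1.31 and 0.621 in ft/ftMyD88-/-. All 4 ft/ftMyD88-/- libraries were below all ft/ft libraries, replicate 1 included, although neither gene passed its own test. The ratio of Timp1 to Timp3 was 0.0102, 0.0209, 0.0109 and 0.0125 in ft/ft and 0.0186, 0.355, 0.0319 and 0.108 in ft/ftMyD88-/-, where replicate 1 fell within the ft/ft range. The ratio of Mmp14 to Timp2, the partners in proMmp2 activation, was 0.322 to 0.384 in ft/ft and 0.418 to 0.546 in ft/ftMyD88-/-, without overlap. The ratio of Mmp14 to Mmp2 was 0.545 to 0.713 and 0.703 to 0.860, and these ranges met. The third ratio without overlap was Mmp3 to Timp1, at 16.6 to 34.2 and 2.05 to 9.89. The summed counts of the 8 MMPs over those of Timp1 and Timp3 overlapped, at 2.04 to 3.54 in ft/ft and 2.69 to 3.97 in ft/ftMyD88-/-, as did Mmp13 to Timp1, Mmp2 to Timp2, Mmp2 to Timp3 and Mmp14 to Timp3.

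**Figure D4:**
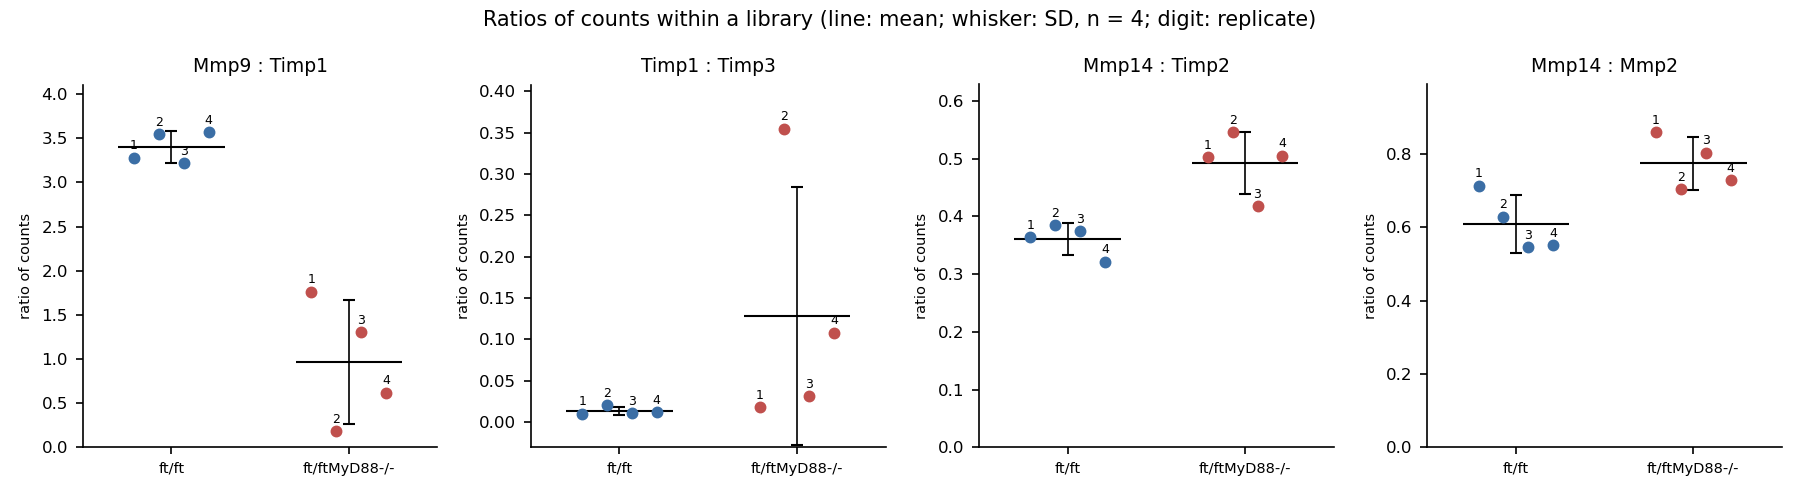
Ratio of the counts of 2 genes within each library (vertical axis, no unit) for 4 pairs; digits are replicate numbers, the line is the mean and the whisker the SD. Mmp9 to Timp1 is at 3.22 to 3.57 in ft/ft and at 0.185 to 1.76 in ft/ftMyD88-/-.

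The rest of the family was read for context. Of 15 other MMP genes, 10 were tested, 3 were higher and 2 were lower, against 10.9% and 12.3% of all tested genes. Remarks on overlap are to be read against 12.5% of all tested genes without overlap above ft/ft and 14.2% below. Mmp19 was at 6.09, 8.47, 6.86 and 7.94 CPM in ft/ft and at 12.3, 35.9, 15.7 and 18.3 CPM in ft/ftMyD88-/- (log2 fold change 1.48 ± 0.32 (SE), edgeR adjusted p = 0.0110). Here replicate 1 was above every ft/ft library, and replicate 2 was again the highest. Mmp11, a stromelysin of stromal cells, averaged 8.56 ± 2.37 CPM in ft/ft and 15.6 ± 2.52 CPM in ft/ftMyD88-/- (SD, n = 4), without overlap (log2 fold change 0.87 ± 0.19 (SE), edgeR adjusted p = 0.00789). Mmp25, a leukocyte MMP held in the membrane by a lipid anchor, was at 2.73 to 4.57 and 4.59 to 5.77 CPM (log2 fold change 0.57 ± 0.19 (SE), edgeR adjusted p = 0.0465). Its call was lost in 7 of the 8 fits that left out 1 library, all but the one without ft/ft replicate 3. It was also lost with a replicate block (edgeR adjusted p = 0.0711). Mmp28, or epilysin, an MMP of epidermal keratinocytes, fell from 24.7 ± 1.51 CPM in ft/ft to 14.1 ± 2.12 CPM in ft/ftMyD88-/- (SD, n = 4), without overlap (log2 fold change -0.81 ± 0.12 (SE), edgeR adjusted p = 0.000713). The membrane-type Mmp15 fell from 53.9 to 74.0 CPM to 36.6 to 47.9 CPM (log2 fold change -0.51 ± 0.12 (SE), edgeR adjusted p = 0.00801). Mmp16, Mmp17, Mmp23 and Mmp27 did not pass (log2 fold changes from -0.53 to 0.48). Mmp27 was called lower with a replicate block (log2 fold change -0.55, edgeR adjusted p = 0.0295) and without ft/ftMyD88-/- replicate 3 (log2 fold change -0.70, edgeR adjusted p = 0.0379). Mmp24 had at most 3 counts in any library, Mmp1b and Mmp20 were under the minimum for testing, and Mmp1a, Mmp7 and Mmp21 were not analysed here. Mmp19 shares 789 exon bases with Tmem198b and Mmp11 shares 155 with Chchd10, both on the opposite strand, and neither of those neighbours was called. Mmp28 shares 466 exon bases with 1700020L24Rik, which was not analysed here.

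Among the other inhibitors 1 of 3 tested genes was called, against 23.3% of all tested genes. Timp4 was at 9.73, 6.07, 7.70 and 13.5 CPM in ft/ft and at 3.11, 3.82, 4.42 and 2.99 CPM in ft/ftMyD88-/-, without overlap (log2 fold change -1.36 ± 0.24 (SE), edgeR adjusted p = 0.00205), and shares 90 exon bases with Syn2, which was not called. Timp2, the most abundant inhibitor, was at 427 to 647 and 386 to 494 CPM (log2 fold change -0.35 ± 0.13 (SE), edgeR adjusted p = 0.0673). Reck, a membrane-anchored inhibitor, had a log2 fold change of -0.20 ± 0.24 (SE; edgeR adjusted p = 0.581). Of the 4 TIMP genes, Timp3 and Timp4 were thus lower, Timp2 did not pass, and Timp1 had a positive fold change that did not pass.

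Genes that act upstream of MMPs or beside them were counted by list, each to be read against the 23.3% of all tested genes. Of 12 cytokines and growth factors known to induce MMPs, 8 rose and none fell, with a median log2 fold change of 1.28. Il1b, which signals through MyD88, was at 3.64, 8.69, 1.95 and 0.920 CPM in ft/ft and at 24.0, 47.6, 19.1 and 33.4 CPM in ft/ftMyD88-/- (log2 fold change 3.00 ± 0.70 (SE), edgeR adjusted p = 0.0250, not called in 4 of 15 alternatives). The study's own qPCR of periocular skin found no significant difference in Il1b between these genotypes. The epidermal growth factor receptor ligand Areg (log2 fold change 1.34 ± 0.27 (SE), edgeR adjusted p = 0.00499) and the cytokine Lif (log2 fold change 1.23 ± 0.19 (SE), edgeR adjusted p = 0.00100) also rose. Replicate 1 had 24.0 CPM of Il1b, between the levels of replicates 3 and 4, and so did not stand with ft/ft here as it did for Mmp13 and Mmp10. Of 14 AP-1, ETS and related transcription factors, 5 rose and 2 fell. The AP-1 subunit Fosl1 rose from 0.892 to 2.29 CPM in ft/ft to 3.57 to 5.49 CPM in ft/ftMyD88-/- (log2 fold change 1.40, edgeR adjusted p = 0.00265), as did the ETS factor Etv4 (log2 fold change 1.42, edgeR adjusted p = 0.000116) and Runx1 (log2 fold change 0.75, edgeR adjusted p = 0.00176). Jund (log2 fold change -0.34, edgeR adjusted p = 0.0166, not called in 2 of 15 alternatives) and the epithelial factor Elf3 (log2 fold change -0.93, edgeR adjusted p = 0.0221, not called in 3 of 15 alternatives) fell.

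Plasmin removes the propeptide of several MMPs. Of 9 genes of plasminogen activation, 4 rose and 1 fell. The activators Plat (log2 fold change 0.55, edgeR adjusted p = 0.00946) and Plau (log2 fold change 0.45, edgeR adjusted p = 0.0413, not called in 6 of 15 alternatives) rose. The protease inhibitor Serpine2 fell (log2 fold change -0.56, edgeR adjusted p = 0.0103, not called in 1 of 15 alternatives). Of 10 activators and binding partners, 2 rose and 2 fell. Lcn2, which binds Mmp9, rose (log2 fold change 1.93, edgeR adjusted p = 0.0431, not called in 7 of 15 alternatives), as did the surface docking receptor Cd44 (log2 fold change 0.58, edgeR adjusted p = 0.00303). The proprotein convertase Pcsk6 (log2 fold change -0.73, edgeR adjusted p = 0.000167) and the integrin subunit Itgav (log2 fold change -0.28, edgeR adjusted p = 0.0347, not called in 8 of 15 alternatives) fell. Of 25 tested ADAM and ADAMTS proteases, relatives that shed surface proteins or cut proteoglycans, 11 rose and 1 fell. Among those with a mean of at least 50 counts, the largest increases were of Adamts18 (log2 fold change 2.31, edgeR adjusted p = 0.000175), the aggrecanase Adamts4 (log2 fold change 1.40, edgeR adjusted p = 0.00207) and Adamts7 (log2 fold change 1.04, edgeR adjusted p = 0.00455). Adamts14, which trims procollagen, fell (log2 fold change -0.49, edgeR adjusted p = 0.0288, not called in 5 of 15 alternatives).

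Of 23 matrix genes whose products MMPs cut, 5 fell and 1 rose. Of the 5, 3 are fibrillar collagens, and the others, Col17a1 and Lamb3, belong to the junction of epidermis and dermis. Col1a1 was at 3066, 4488, 7189 and 4473 CPM in ft/ft and at 1434, 1808, 1726 and 1378 CPM in ft/ftMyD88-/- (log2 fold change -1.60 ± 0.23 (SE), edgeR adjusted p = 0.000907). Col1a2 (log2 fold change -1.49, edgeR adjusted p = 0.000684) and Col3a1 (log2 fold change -1.10, edgeR adjusted p = 0.00369) fell with it. Acan, the cartilage proteoglycan aggrecan, rose from 1.59 to 5.47 CPM to 5.91 to 7.80 CPM (log2 fold change 1.16, edgeR adjusted p = 0.0333, not called in 7 of 15 alternatives).

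In bulk skin, fewer cells of a type and less RNA per cell cannot be told apart, and the makeup of the samples differed between the groups. Counts of markers called are to be read against 10.9% of all tested genes called higher and 12.3% called lower. The summed level of 9 fibroblast markers was 9132 to 19339 CPM in ft/ft and 4771 to 6643 CPM in ft/ftMyD88-/-, with 3 of 9 lower and 1 higher. The collagens Col1a1 and Col1a2 carried most of that sum and of its drop, from 10837 to 3729 CPM on average. Without them, a sum chosen after the values were seen, the other 7 markers summed to 2351 ± 597 CPM in ft/ft and 2118 ± 470 CPM in ft/ftMyD88-/- (SD, n = 4), and the groups overlapped. Of these 7, Fbln1 was called lower (log2 fold change -0.79), Thy1 was called higher (log2 fold change 0.67) and 5 were not called. Mmp2 and Timp3, which fibroblasts also make, were highest in ft/ft replicate 3, as the fibroblast sum was. The neutrophil sum was 69.9 to 382 CPM in ft/ft, where replicate 2 held 382 and the others at most 91.8, and 439 to 1088 CPM in ft/ftMyD88-/-. Of its 12 markers 10 were in the table, 9 were tested, 2 were higher and 1 was lower. Csf3r and Trem1 were those called higher, and Mpo was the one called lower (log2 fold change -2.80, edgeR adjusted p = 0.0195). S100a8 and S100a9, which keratinocytes can also make, carried much of the sum but were not called (edgeR adjusted p = 0.126 and 0.123). The granule genes Elane and Ngp had 0 counts in some libraries of both groups. Mmp8 was highest in ft/ftMyD88-/- replicate 2, where the neutrophil sum was 926 CPM. In replicate 4, which had the highest neutrophil sum (1088 CPM), Mmp8 was at 0.244 CPM, below ft/ft replicate 1 (0.257 CPM). In ft/ft replicate 2, with a sum of 382 CPM, it was at 0.109 CPM. S100a8 and S100a9 held 405 and 529 CPM of the sum in ft/ftMyD88-/- replicate 4. Csf3r was at 8.68, 14.1, 5.95 and 6.59 CPM in ft/ftMyD88-/- replicates 1 to 4, and Trem1 at 3.51, 10.4, 2.14 and 4.45 CPM. Both were highest in replicate 2, as Mmp8 was, whereas Ltf was highest in replicate 1 (363 CPM). The markers thus did not rank the libraries alike, and their relation to Mmp8 was not tested. The macrophage and monocyte list, given with Mmp12 above, had 3 of 12 markers higher and none lower. All 10 T cell markers were higher, with sums of 19.1 to 25.0 and 35.0 to 44.6 CPM.

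Some of the other lists differed as well, with counts again to be read against 10.9% higher and 12.3% lower over all tested genes. The basal keratinocyte sum was 14024 to 17175 CPM in ft/ft and 9837 to 12059 CPM in ft/ftMyD88-/- (5 of 7 markers lower), and the hyperproliferative sum was 2794 to 3605 and 3284 to 5627 CPM (2 of 6 higher). The differentiated keratinocyte sum was 15963 to 21148 and 11741 to 14599 CPM (3 of 6 lower), the sebocyte sum 21611 to 24166 and 13194 to 19273 CPM (8 of 11 lower) and the endothelial sum 268 to 330 and 201 to 260 CPM (3 of 7 lower). Mast cell, adipocyte, hyperproliferative keratinocyte and anagen hair follicle sums overlapped between the groups. Markers of the anagen hair follicle summed to 191 to 393 CPM in ft/ft and to 3372, 269, 474 and 1500 CPM in ft/ftMyD88-/- replicates 1 to 4 (3 of 10 higher), so replicate 1, the library with the low Mmp13, Mmp10 and Timp1, had the highest hair follicle sum. Skeletal muscle markers summed to 10750 to 14531 CPM in ft/ft and 4057 to 7788 CPM in ft/ftMyD88-/- (10 of 12 lower), so muscle transcripts were present in both groups. The part of these differences in the levels of the 10 genes was not tested.

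**Figure D5:**
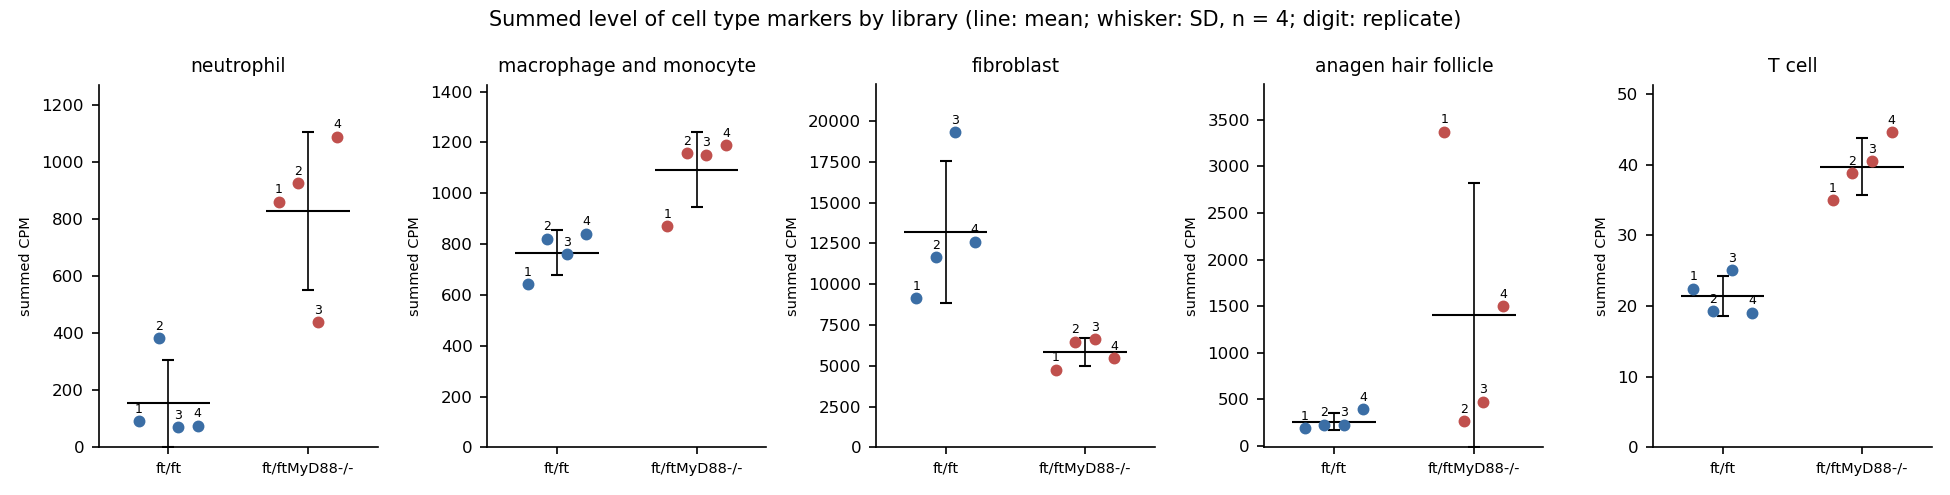
Summed CPM of markers of 5 cell types (vertical axis, linear) in each library; digits are replicate numbers, the line is the mean and the whisker the SD. The fibroblast sum is at 9132 to 19339 CPM in ft/ft and 4771 to 6643 CPM in ft/ftMyD88-/-, of which Col1a1 and Col1a2 are 7214 to 16137 and 3311 to 4130 CPM, and the hair follicle sum of ft/ftMyD88-/- replicate 1 is at 3372 CPM.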

How the data were processed

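Total RNA of periocular skin was sequenced in 4 ft/ft and 4 ft/ftMyD88-/- samples. The authors deposited raw counts per gene, without normalization. The study gives polyA-selected TruSeq libraries, HISAT and TopHat2 as aligners, GRCm38.p6 as the genome and HTSeq with default parameters for counting. The labels of these 8 samples instead name a fixed-tissue single-cell protocol and Cell Ranger, and which applies was not settled. Levels per kilobase of exon and the remarks on overlapping genes assume the protocol of the study. The kit named by the study does not mark strand, so reads of overlapping genes on opposite strands cannot be told apart. HTSeq's default is for stranded libraries, so with such a kit counts may hold only part of the reads. Nothing says how samples were batched. Columns were matched to samples by library name, and 0 columns of per-sample values were left unused. The 4 WT samples were not analysed here.

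Of the genes, 20454 reached a sum of 10 counts over the 8 libraries and were fitted in R 4.3.3 with edgeR 4.0.16 (TMM, glmQLFit with robust estimation, glmQLFTest, two-sided, no covariate), with Benjamini-Hochberg adjustment over all genes at 0.05. Intervals are at 95%, and SE is the log2 fold change divided by the square root of F. Values at 0 were read against 3 counts, which covers counting error only. Alternatives were DESeq2 1.42.0, limma voom 3.58.1, RLE factors, library size scaling, other filters and thresholds, a replicate block and leaving out each library. The procedure was tested on simulated data.

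The 10 genes and all lists were chosen with earlier results of these data known. Named are the 10 genes, the other MMP and inhibitor genes, and, from each other list, up to 3 called genes per direction of largest fold change with a mean of at least 50 counts; 1 gene that this rule names is not reported here. Xist, Ddx3y, Myd88, Col17a1, Lamb3, Fbln1, Thy1, Lyz2, the overlapping genes and the markers singled out were added after their values were seen. Coordinates and exon lengths are from GENCODE on GRCm38, and promoter windows from RefSeq on GRCm38.p6.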

Additional observations from a re-analysis of the deposited data

Results flagged for a closer look

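None of the 10 genes held a library that stood apart from the other 3 of its group by Dixon's criterion at 95%. Over all named genes, list sums and totals, 138 groups of 4 were examined and 9 held such a library. Chance alone gives about 1 in 20 groups, so 9 is near what chance gives. In ft/ftMyD88-/-, Mmp25 was at 5.77 CPM in replicate 2 against 4.59 to 4.70 CPM in the others, and Acan was at 7.80 CPM in replicate 1 against 5.91 to 6.14 CPM. The summed level of ADAM and ADAMTS proteases was 848 CPM in ft/ftMyD88-/- replicate 2 against 708 to 718 CPM, and that of MMP-inducing cytokines was 151 CPM in replicate 3 against 212 to 219 CPM. Macrophage and monocyte markers summed to 872 CPM in ft/ftMyD88-/- replicate 1 against 1153 to 1190 CPM. Markers of differentiated keratinocytes summed to 14599 CPM in ft/ftMyD88-/- replicate 4 against 11741 to 12088 CPM, and adipocyte markers to 2201 CPM in replicate 3 against 1104 to 1183 CPM. In ft/ft, neutrophil markers summed to 382 CPM in replicate 2 against 69.9 to 91.8 CPM, and basal keratinocyte markers to 14024 CPM in replicate 4 against 16664 to 17175 CPM.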

How the results depend on the processing

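Depth limits Mmp10, Mmp8 and Mmp13, which rest on at most 102 counts in a library. The count of the 10 genes called higher, 2 in the report, was 1 with edgeR's filterByExpr (which left Mmp10 and Mmp8 untested), 0 with limma voom and 1 at an adjusted p under 0.01. The count called lower, 1 in the report, was 0 with library size scaling, at an adjusted p under 0.01 and at a log2 fold change of at least 1 in size, and 0 to 1 when a library was left out. It was 0 without ft/ft replicate 1 or 3 or ft/ftMyD88-/- replicate 2 or 4, and without ft/ft replicate 4 the gene called was Mmp12, not Timp3. Library size scaling moved the median log2 fold change of all genes from 0.01 to 0.19 and the share of calls that were higher to 77.8%, with 4638 genes higher and 1326 lower. Over the whole table, 4764 genes were called (2239 higher, 2525 lower), 2301 at an adjusted p under 0.01 (951 and 1350) and 1272 with a log2 fold change of at least 1 (752 and 520). Leaving out a library gave 3344 to 4668 genes, 1462 (without ft/ft replicate 4) to 2260 of them higher. At an adjusted p under 0.01 and at a log2 fold change of at least 1, the calls were 3 and 1 for other MMPs, 6 and 7 for ADAM and ADAMTS proteases, 2 and 2 for plasminogen activation, 2 and 1 for MMP partners, and 4 and 2 for AP-1 and ETS factors, and 4 cytokines passed the stricter p. Leaving out a library gave 1 to 2 calls for other inhibitors (2 without ft/ft replicate 1 or ft/ftMyD88-/- replicate 3), 3 to 7 for plasminogen activation (3 without ft/ftMyD88-/- replicate 4), 2 to 4 for MMP partners (2 without ft/ft replicate 3 or 4 or ft/ftMyD88-/- replicate 4) and 5 to 9 for cytokines (5 without ft/ft replicate 1 or 3 or ft/ftMyD88-/- replicate 2 or 4). The sign turned for Mmp3 with library size scaling (0.071) and without ft/ft replicate 3, ft/ftMyD88-/- replicate 1 or 3 (0.20, 0.10 and 0.081; range over left-out libraries -0.59 to 0.20), for Mmp14 without ft/ft replicate 1 (range -0.011 to 0.20) and for Reck without ft/ft replicate 3 (range -0.37 to 0.042), none of them called. The cause of these changes was not tested. Replicate numbers are shared by the groups, but same-numbered libraries did not deviate together (correlations from -0.15 to 0.03 over genes). Differently numbered libraries had correlations from -0.13 to 0.08. With so few libraries such values cannot exclude a shared batch or litter, and nothing says that the number marks one. With a replicate block 4039 genes were called, 10 matrix genes rather than 6 among them, and the calls of Mmp13, Mmp10 and Timp3 held (adjusted p = 0.00318, 0.00376 and 0.0166).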
